A study of Mus musculus with 4 samples.

Results

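The milk-fat and cholesterol synthesis genes were 36 genes, chosen by symbol from the 52636 gene rows of a single-cell RNA-seq table of sorted mouse luminal mammary cells. They fell into 7 groups by role, namely 2 sterol-responsive regulators, 7 genes that supply building blocks or make fatty acids, 7 that elongate or desaturate them, 3 that take up or carry them, 4 that assemble triglyceride, 4 of the lipid droplet and milk fat globule, and 9 of cholesterol synthesis. All 36 had at least 1 UMI (unique molecular identifier, a tag that counts 1 captured RNA molecule). The table held 32439 cells from C57BL/6N mice aged 6 weeks and of 2 genotypes, ErbB3+/+;MMTV-Cre (WT) and ErbB3V943R/V943R;MMTV-Cre (mutant). Both genotypes carried the Cre transgene, driven by the promoter of mouse mammary tumour virus, and in the mutant both Erbb3 alleles were made to carry V943R by Cre, a change in the surface through which this receptor activates its partners. For each genotype the thoracic and abdominal glands of 3 mice were pooled, sorted for luminal epithelium, and appear in the table as 2 libraries, here called A and B. How the mice were divided between the libraries is not given in the sources used here. The 3′ counts do not read the changed codon, so the genotype labels were not checked against it. With the 3 mice of a genotype pooled, there was no known replicate of the animals and no test between genotypes was possible, and every interval below is a 95% interval that covers counting error only.

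Fatty acids are built from acetyl-CoA in the cytosol by acetyl-CoA carboxylase and fatty acid synthase, are lengthened and desaturated, and are joined to glycerol by acyltransferases. In a lactating gland the alveolar cells, which descend from luminal progenitors, store the fat in droplets coated by perilipin 2 and release it as milk fat globules with the help of butyrophilin and xanthine dehydrogenase. Cholesterol is made from the same acetyl-CoA through the mevalonate pathway, which is controlled by sterol-sensing transcription factors of the SREBP family and serves all growing cells.

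The start regions of 25 of the 36 genes were found in the RefSeq promoter table of the GRCm38.p6 assembly, from 250 bases before to 50 bases after the start. The motif CCAAT, the box bound by NF-Y, was searched on both strands and was present in 19 of these 25, and in 37.4% of all 32851 promoters of the table. All 7 cholesterol synthesis genes with a promoter in the table held it (Hmgcs1, Mvd, Idi1, Lss, Cyp51, Msmo1 and Sc5d). The motif TCACNCCAC, a core of the sterol regulatory element, was present in 1 of the 25, Hmgcs1, and in 1.24% of all promoters. The promoters of Hmgcs1 and Cyp51 are printed for the cholesterol genes, the first as the one with both motifs and the second as a gene with a higher level in dividing cells, and that of Plin2 for the genes that were high in progenitors. Capitals mark the motifs, which do not overlap here, and ATTGG is CCAAT on the other strand. A match is a description of these windows only.
Hmgcs1, chr13:119690101-119690400, plus strand: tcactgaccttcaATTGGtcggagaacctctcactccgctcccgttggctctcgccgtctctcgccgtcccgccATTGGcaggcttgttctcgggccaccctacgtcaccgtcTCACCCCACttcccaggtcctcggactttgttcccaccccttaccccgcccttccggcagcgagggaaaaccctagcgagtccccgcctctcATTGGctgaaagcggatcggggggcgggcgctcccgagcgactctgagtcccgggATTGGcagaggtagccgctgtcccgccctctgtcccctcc
Cyp51, chr5:4104648-4104947, minus strand: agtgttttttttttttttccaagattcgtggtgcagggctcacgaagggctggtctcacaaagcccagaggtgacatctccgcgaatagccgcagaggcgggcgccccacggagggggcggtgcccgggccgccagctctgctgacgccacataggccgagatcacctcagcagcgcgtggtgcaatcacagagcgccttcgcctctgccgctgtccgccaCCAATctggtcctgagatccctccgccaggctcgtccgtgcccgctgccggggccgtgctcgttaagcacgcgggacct
Plin2, chr4:86670010-86670309, minus strand: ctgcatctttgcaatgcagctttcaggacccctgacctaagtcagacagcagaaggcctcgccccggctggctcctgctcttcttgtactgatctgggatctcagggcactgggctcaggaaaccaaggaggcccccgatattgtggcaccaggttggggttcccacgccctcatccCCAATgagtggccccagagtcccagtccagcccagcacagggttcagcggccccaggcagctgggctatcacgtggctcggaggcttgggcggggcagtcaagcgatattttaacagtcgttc

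The libraries held 9627 (WT A), 9011 (WT B), 6849 (mutant A) and 6952 (mutant B) cells, with 30019745 to 38009351 UMIs each and a median of 3154 to 4027 UMIs per cell. Of 31923 barcodes, 511 occurred in more than 1 library. The classes luminal progenitor (LP, clusters 1 and 2), intermediate (LI, cluster 3) and mature luminal (ML, clusters 4 to 11) were the authors' own, made from the same expression values, so differences between classes and clusters are descriptions. Levels are given as CPM, a gene's UMIs per 1000000 UMIs of the same cells. The summed level of 5 progenitor markers (Kit, Aldh1a3, Cd14, Elf5, Itga2) was 1935 CPM in LP and 55.8 CPM in ML of WT, and that of 6 mature luminal markers (Prlr, Esr1, Pgr, Cited1, Foxa1, Ly6a) was 695 and 4908 CPM. The authors named LP by Kit and ML by Prlr in these cells, so these sums describe the classes and are no independent check of the names. LI cells were the richest in UMIs, with a median of 5620 in WT against 2018 in LP and 3508 in ML, and 6849.5, 2067 and 4069.5 in the mutant. Doublets were not removed, and their part in the LI levels was not tested. Of adipocytes, the other fat-making cells of the gland, the markers Adipoq, Lep and Cidec had 2, 0 and 2 UMIs over the WT luminal classes. The 10 adipocyte markers together had 46, 86 and 120 UMIs in LP, LI and ML of WT, or 5.40, 11.6 and 2.11 CPM. Most of these UMIs thus came from other markers of the list, of which Fabp4 was higher in LP than in ML.

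The clearest pattern was a split between the classes. In WT, 29 members had at least 50 UMIs in the class with the most, and 13 of them differed at least 2-fold between the highest and the lowest class, beside 26.5% of all genes tested. Of the 13, 9 were highest in LP (14.8% of all genes) and 4 in ML (8.92%). With either WT library left out, 3 were highest in ML, since without WT A Mvd did not pass and without WT B Gpam was highest in LI, at 2.39 CPM against 2.32 in ML. Insig1 did not pass with either left out, and Elovl5 passed without WT A. In the mutant 31 members could be compared and 13 passed, 11 highest in LP and 2 in ML, beside 27%, 16% and 8.37% of all genes. The same highest class was found in both genotypes for 11 members. The members highest in LP of WT were droplet and globule genes (Plin2, Xdh, Btn1a1), desaturases (Scd1, Fads1, Fads2), and Acaca, Lpin1 and Insig1. Those highest in ML were Dgat2, Scd2, Gpam and Mvd, of which Gpam and Mvd did not pass in the mutant.

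**Figure D1:**
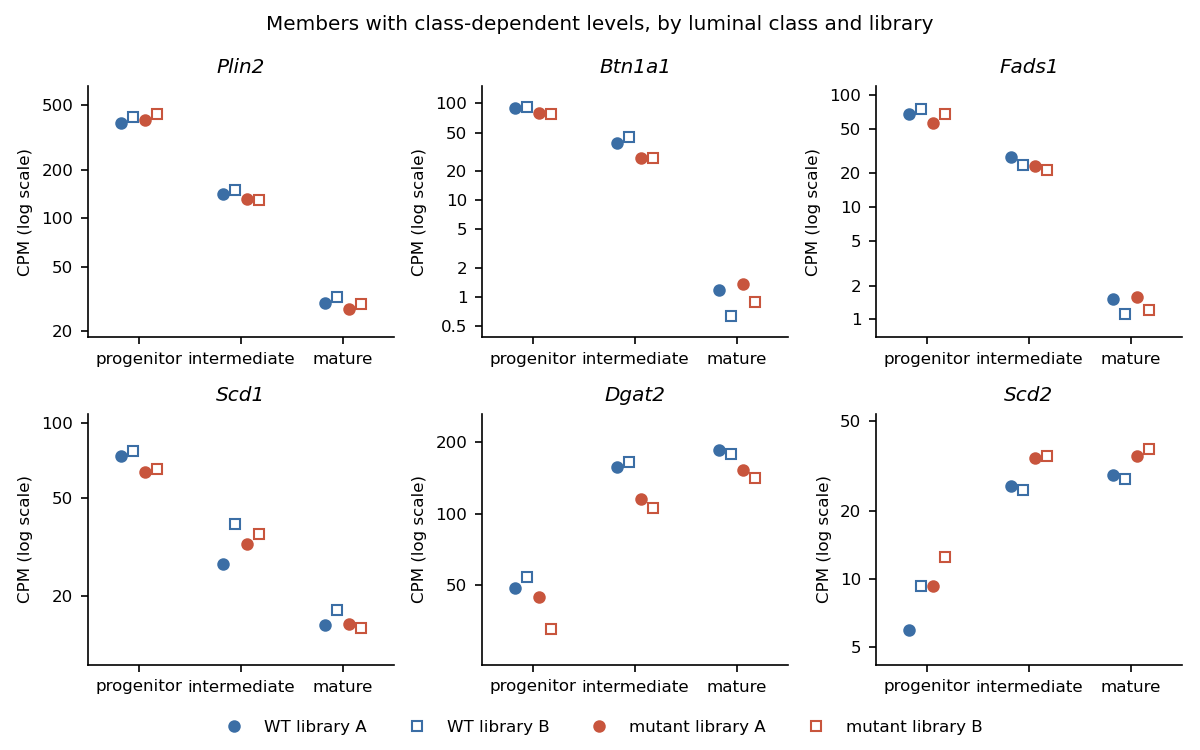
Level of 6 members in CPM (log scale) in progenitor, intermediate and mature luminal cells, with 1 point for each of the 2 WT and 2 mutant libraries. Plin2, Btn1a1, Fads1 and Scd1 step down from progenitor to mature cells and Dgat2 and Scd2 step up, in every library.

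Plin2 (ENSMUSG00000028494, chr4:86648386-86670060), the perilipin that coats lipid droplets, had a level of 389, 422, 406 and 440.5 CPM in the LP cells of WT A, WT B, mutant A and mutant B, the order used for all sets of 4 values here. Its level was 141, 149, 132 and 129 CPM in LI and 29.6, 32.3, 27.4 and 29.5 CPM in ML. The classes did not overlap, and the WT level was 13.1-fold higher in LP than in ML. After each cell was thinned to 1000 UMIs, a Plin2 UMI was present in 34.1% (Clopper-Pearson interval 32.4 to 35.8) of WT LP cells, 14.45% of LI and 3.05% (2.78 to 3.35) of ML cells (unthinned 56.2%, 52.4% and 11.4%). The ML share was no higher than the 3.61% (0.752 to 10.2) of 83 WT cells in cluster 13, which carried immune markers. Those were 3 cells, and the part of free RNA in the ML level was not tested, nor is the fold corrected for it.

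Btn1a1 (ENSMUSG00000000706, chr13:23456992-23465901), the butyrophilin of the globule membrane, had the widest range among the members that passed, 99.96-fold in WT. Its level was 88.7, 90.8, 80.0 and 78.0 CPM in LP, 39.1, 44.6, 27.1 and 27.5 CPM in LI and 1.18, 0.641, 1.37 and 0.885 CPM in ML. A UMI was present in 9.43% of thinned WT LP cells, 4.03% of LI and 0.0917% of ML cells (unthinned 15.2%, 18.2% and 0.352%), beside 2.41% of cluster 13. Xdh (chr17:73883895-73950196), the xanthine dehydrogenase that binds butyrophilin, had 54.3, 50.2, 59.5 and 55.2 CPM in LP, 16.7, 22.6, 15.3 and 19.6 in LI and 1.29, 1.52, 1.37 and 1.60 in ML, a WT range of 37.0-fold. Cidea, which acts in the fusion of droplets, was scarce at 5.05, 2.30 and 0.687 CPM in LP, LI and ML of WT and did not reach 50 UMIs in any WT class.

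Fads1 (chr19:10182888-10196877) and Fads2 (chr19:10062765-10101746), the delta-5 and delta-6 desaturases of polyunsaturated fatty acids, lie near each other and had like patterns. Fads1 had 67.9, 74.9, 56.7 and 68.1 CPM in LP, 27.9, 23.9, 23.3 and 21.4 in LI and 1.51, 1.11, 1.60 and 1.22 in ML, a range of 54.9-fold in WT. Fads2 had 26.0, 27.7, 21.8 and 21.8 CPM in LP, 8.77, 6.60, 8.03 and 6.61 in LI and 0.516, 0.439, 0.365 and 0.590 in ML, a range of 56.5-fold. Both were thus lowest in ML in all 4 libraries. A Fads1 UMI was present in 6.70% of thinned WT LP cells, 2.89% of LI and 0.106% of ML cells (unthinned 16.4%, 15.7% and 0.5145%), beside 1.205% of cluster 13.

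Scd1 (chr19:44394455-44407879) and Scd2 (chr19:44293674-44306864), stearoyl-CoA desaturases encoded near each other on chromosome 19, went opposite ways. Scd1 had 73.6, 77.4, 63.5 and 65.3 CPM in LP, 27.1, 39.3, 32.6 and 35.7 in LI and 15.3, 17.6, 15.5 and 14.9 in ML. Scd2 had 5.95, 9.37, 9.36 and 12.5 CPM in LP, 25.8, 24.8, 34.4 and 34.9 in LI and 28.8, 27.8, 35.1 and 37.8 in ML. How reads shared by these paralogs were counted is not given in the sources used here. Of the other elongases, Elovl5 had 13.6, 8.38 and 7.03 CPM in LP, LI and ML of WT and passed the 2-fold rule in the mutant, and Elovl6 had 16.7, 11.8 and 10.2. Some genes of fatty acid synthesis differed by less than 1.2-fold across the WT classes, with 105, 107 and 118 CPM in LP, LI and ML for Elovl1, an elongase of very long chains, 60.8, 56.8 and 60.8 for Acly, the lyase that makes cytosolic acetyl-CoA, 35.8, 31.5 and 35.7 for Me1, the malic enzyme that supplies NADPH, and 26.1, 30.0 and 28.8 for the synthase Fasn. Acaca, the carboxylase ahead of Fasn, had 17.1, 16.1, 13.7 and 13.5 CPM in LP and 5.93, 5.13, 6.43 and 5.52 in ML, a range of 3.00-fold in WT.

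Dgat2 (ENSMUSG00000030747, chr7:99153658-99182719), an acyltransferase of the last step of triglyceride synthesis, ran against the droplet genes. It had 48.6, 54.2, 44.8 and 32.8 CPM in LP, 157, 165, 115 and 106 in LI and 186, 178, 152 and 141 in ML. A UMI was present in 4.92% of thinned WT LP cells, 14.8% of LI and 15.8% of ML cells (unthinned 11.7%, 53.1% and 43.5%). The share was 4.82% (1.33 to 11.9) in the 83 WT cells of cluster 13, and the part of free RNA in the LP level was not tested. Dgat1, the other enzyme of this step, had 27.5, 17.8 and 17.5 CPM in LP, LI and ML of WT, Lpin1, a phosphatidate phosphatase, 14.1, 7.43 and 4.16, and Gpam, an acyltransferase of the first step, 0.704, 2.16 and 2.55. By library Gpam had 0, 1.34, 2.02 and 2.33 CPM in LP, 2.39, 1.93, 2.26 and 2.38 in LI and 2.32, 2.77, 3.10 and 2.44 in ML, the LP level of WT from 6 UMIs.

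LI lay between LP and ML for 12 of the 13 members that passed in WT. The authors describe LI as sharing genes of LP and ML in graded amounts, so this count is not read as a trait of the members. The share over all genes was not computed. On a scale with the ML level at 0% and the LP level at 100%, the position of LI had a median of 28.1% (range -43.1 to 52.7%). The exception was Insig1, which retains SREBP when sterols are plentiful, with 2.82, 0.676 and 1.32 CPM from 24, 5 and 75 UMIs in LP, LI and ML. By library Insig1 had 2.97, 2.68, 4.81 and 2.96 CPM in LP, 0.532, 0.825, 1.00 and 1.06 in LI and 1.10, 1.52, 1.41 and 1.77 in ML. Srebf1, which encodes the SREBP of fatty acid synthesis, had 76.3, 81.0, 86.8 and 84.8 CPM in LP and 50.8, 49.6, 45.7 and 47.9 in ML.

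**Figure D2:**
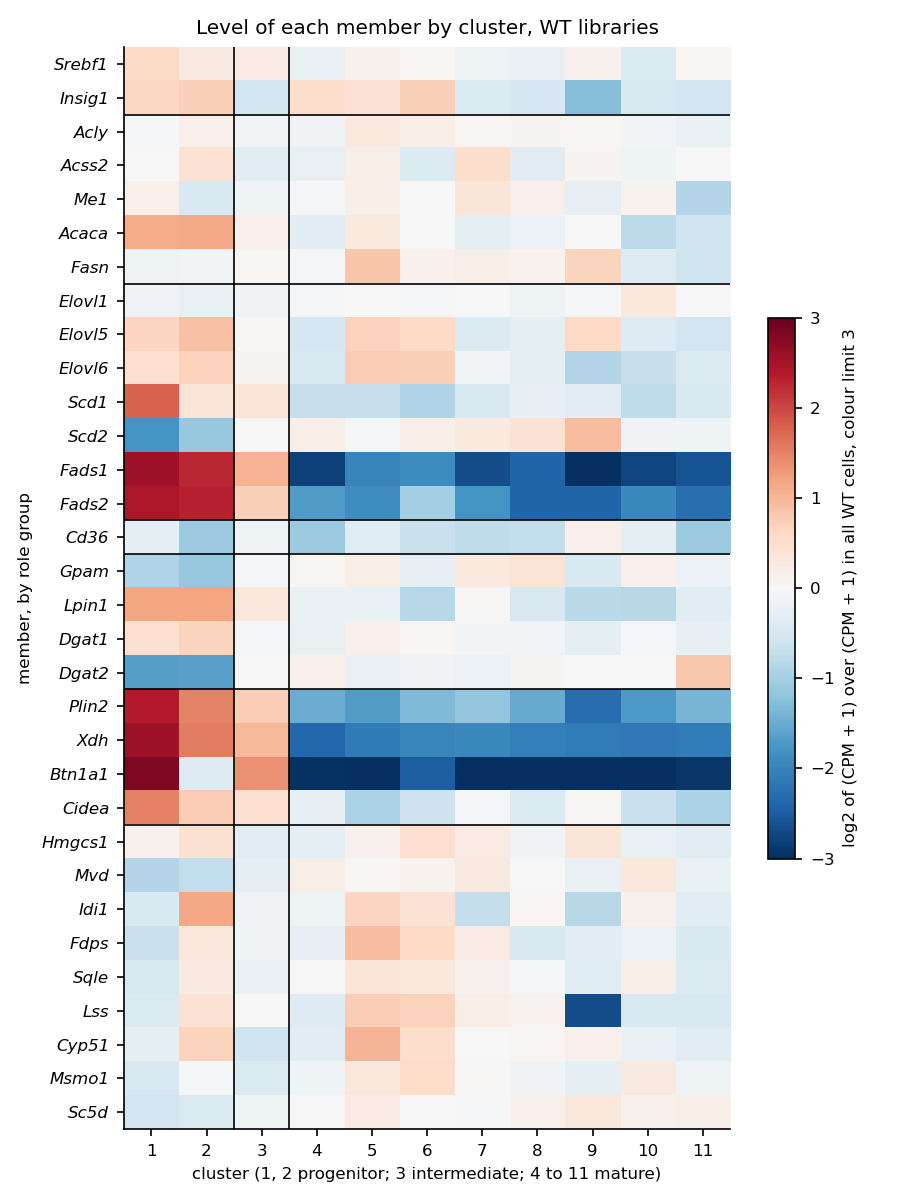
WT level of the 32 members with at least 50 WT UMIs in clusters 1 to 11, as the log2 of CPM plus 1 over the same value in all WT cells, with lines between role groups and between classes. Plin2, Btn1a1 and Scd1 are highest in cluster 1, where Plin2 had 456 CPM, Fads1 and Fads2 are high in clusters 1 and 2, and much of the cholesterol group is above its mean in clusters 5 and 6.

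Genes for the uptake of fat had few UMIs in luminal cells. Cd36, a fatty acid translocase, had 31 UMIs over the WT luminal classes and stood at 437 CPM in the 43 WT cells of cluster 12 and 874 CPM in its 33 mutant cells. That cluster carried fibroblast and endothelial markers, at 5739 and 3137 summed CPM in WT. It also carried adipocyte markers, at 1043 CPM in WT and 1733 CPM in the mutant. Its basal markers summed to 508 CPM in WT and 14.3 CPM in the mutant. Which of its cells held Cd36 was not tested. Lpl, the lipase that frees fatty acids from circulating triglyceride, had 20, 1 and 6 UMIs in LP, LI and ML of WT. Fabp3, a fatty acid binding protein, Olah, the thioesterase of medium chains, and Thrsp, a regulator of milk fat, had 15, 16 and 29 UMIs in all WT cells and 7, 24 and 26 in mutant cells, too few to compare.

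Within LP, cluster 2 was set against cluster 1, a comparison chosen after the values were seen. Cluster 2 held dividing progenitors, with 2096 summed CPM of 5 proliferation markers (Mki67, Top2a, Birc5, Ccnb1, Cdk1) in WT against 124 in cluster 1, and a median depth of 3490 against 1827.5 UMIs. A member was called where the fold was at least 1.5, the side with more UMIs had at least 50 of them, whichever side had the higher level, and both libraries of 1 side lay beyond both of the other. Of 24 members with enough UMIs in WT, 3 were higher in cluster 2 (Fdps, Sqle, Cyp51, all of cholesterol synthesis), beside 10.7% of all genes, and 5 lower (Me1, Scd1, Plin2, Xdh, Btn1a1), beside 10.9%. The median log2 ratio of the members was 0.047, beside 0.028 over all genes tested. Median-of-ratios scaling shifted all ratios by 0.11 on the log2 scale and called the same 8 members. In the mutant 5 of 26 were higher (Elovl6, Scd2, Dgat2, Fdps, Cyp51), beside 10.2%, and 5 lower (Scd1, Plin2, Xdh, Btn1a1, Cidea), beside 11.3%. The higher level rested on fewer than 50 UMIs for Fdps in WT (36) and for Elovl6 (49) and Scd2 (42) in the mutant. Fdps and Cyp51 were called higher in both genotypes (66.7% of the WT and 40% of the mutant calls), and Scd1, Plin2, Xdh and Btn1a1 lower in both (80% of each).

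The widest of these gaps was that of Btn1a1. It had 115, 113, 101 and 96.4 CPM in cluster 1 and 10.9, 12.3, 9.74 and 16.6 CPM in cluster 2, a WT log2 ratio of -3.29 (-3.96 to -2.70). Lalba, the alpha-lactalbumin gene and no member, had a log2 ratio of -3.30, while 7 milk protein genes summed, most of it Csn3, had 2441 and 2551 CPM in WT clusters 1 and 2. Of these milk protein genes, Csn1s1 was called higher in cluster 2 in both genotypes, Lalba lower in both and Csn1s2a lower in WT. Plin2 had 435, 474, 459 and 500.4 CPM in cluster 1 and 251, 236, 229 and 240.0 in cluster 2 (log2 ratio -0.91, -1.05 to -0.77), without overlap. The log2 ratio was -1.41 (-1.80 to -1.04) for Scd1, -1.04 for Xdh and -0.63 for Me1. The 5 progenitor markers moved the same way, with summed levels of 2199 and 1067 CPM in WT clusters 1 and 2 (log2 ratio -1.04, -1.11 to -0.98) and Kit, Aldh1a3 and Cd14 called lower in both genotypes. The mature luminal markers had a WT log2 ratio of 0.35, with Cited1 and Foxa1 called higher. The basal markers had -0.70 in WT, with Oxtr called lower, and -1.18 in the mutant, with Acta2 and Oxtr called lower. The immune markers had 1.07 in WT, with 47.5 CPM in cluster 2 of WT A and 3.08 CPM in that of WT B. In the mutant they had -1.15, with Cd74 called lower. The part of these markers in the member values was not tested.

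Of the 9 cholesterol genes, 7 could be compared, with 3 called higher in WT and 2 in the mutant, and their median WT log2 ratio was 0.44. The 9 summed to 137, 147, 147 and 168 CPM in cluster 1 and 239, 195, 231 and 216 in cluster 2, a WT log2 ratio of 0.61 (0.44 to 0.77). Fdps, the farnesyl diphosphate synthase, had 18.1 against 8.72 CPM in WT, Cyp51, the lanosterol demethylase, 28.2 against 14.1, and Sqle, the squalene epoxidase, 71.5 against 42.2. Without WT A, 5 members were called and Sqle was the only one higher, and without WT B, 7 were called and Hmgcs1 and Sqle were higher, so Fdps and Cyp51 were not called with either WT library left out. Fdps had 8.59 CPM in cluster 1 and 15.8 in cluster 2 of WT A, and 8.84 and 20.5 in WT B, and with 57 WT UMIs in cluster 1 it fell under the minimum of 50 without either library. Cyp51 had 12.9 and 33.7 CPM in WT A and 15.1 and 22.6 in WT B, fell under the minimum without WT B and stood under 1.5-fold without WT A. Of 35 other genes of the pathways with enough UMIs, 7 were higher in WT cluster 2, among them the mevalonate kinase Mvk (log2 ratio 1.03), Acat2, an acetyl-CoA acetyltransferase (log2 ratio 1.00), Acsl5 and Lpin2. The 3 lower were Mylip, a ubiquitin ligase (11.1 against 32.6 CPM), Abca1, a cholesterol exporter (3.02 against 12.7 CPM), and Vldlr.

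Among mature cells, clusters 5 and 6 were set against the rest in the same way, again after the values were seen. The 5 proliferation markers summed to 1338 CPM there and 33.7 CPM in the other mature clusters of WT, and the median depth was 5032.5 and 4703.5 UMIs, against 3508 in ML as a whole. Of 26 members, 8 were higher in WT (Acaca, Fasn, Elovl5, Elovl6, Fads1, Fdps, Lss, Cyp51), beside 13.6% of all genes, and 0 lower, beside 9.45%. The median log2 ratio of the members was 0.24, beside 0.048 over all genes tested. In the mutant 6 of 25 were higher (12.6% of all genes) and 0 lower (7.72%), and these 6 were among the WT calls (75% of them), namely Acaca, Elovl5, Elovl6, Fdps, Lss and Cyp51. Without cluster 11 in the comparison, the same 6 were called in WT, and with 1 WT library left out 6 to 7 were (Acaca, Fasn and Fads1 were each lost in at least 1 of these settings). Fads1 had 24 UMIs in clusters 5 and 6 of WT. The fibroblast markers summed to 7.29 CPM there and 16.0 CPM in the other mature cells of WT, with Dcn called lower. The basal markers summed to 11.5 and 17.4 CPM, with Acta2 called lower. Of the luminal markers, Aldh1a3 and Cited1 were called higher in WT, and Elf5, Itga2, Prlr and Ly6a lower. The part of these markers in the member values was not tested.

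Elovl6, which elongates palmitate, had 19.0 against 8.27 CPM in WT (log2 ratio 1.20, 0.94 to 1.45) and Elovl5, which elongates polyunsaturated chains, a log2 ratio of 1.18 (0.86 to 1.48). Of the cholesterol genes Fdps had 25.1 against 12.8 CPM, Cyp51 30.3 against 15.7 and Lss, the lanosterol synthase, 9.39 against 4.51. Of 37 other pathway genes, 8 were higher in WT, among them Mvk (log2 ratio 0.82), Dhcr7, Hsd17b7, Acat2 (log2 ratio 1.26), Acsl5 and Abcg2. The 4 lower were Mylip (4.69 against 10.4 CPM), the cholesterol exporters Abca1 and Abcg1, and Lipe, the hormone-sensitive lipase.

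**Figure D3:**
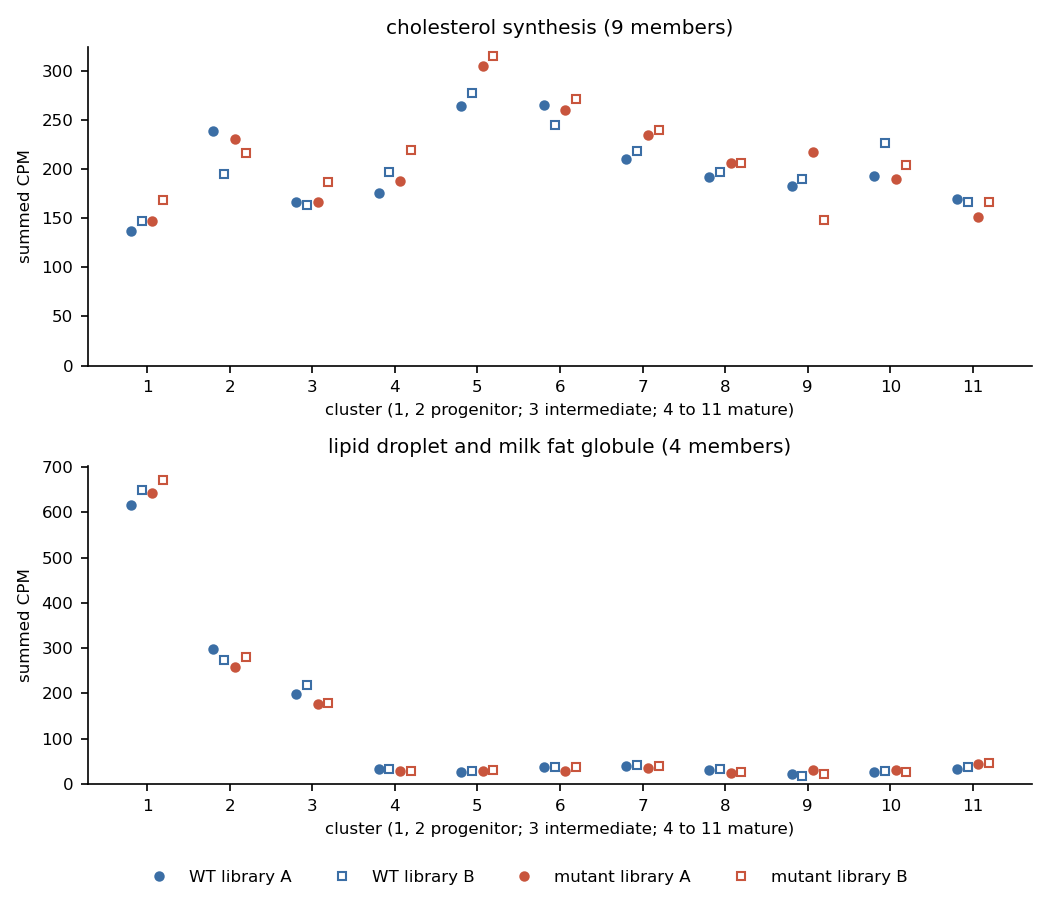
Summed CPM of the 9 cholesterol synthesis members (top) and the 4 lipid droplet and globule members (bottom) in clusters 1 to 11, with 1 point for each library and both axes starting at 0. In WT the cholesterol sum is highest in clusters 5 and 6, at 271 and 254 CPM, and the droplet sum in cluster 1, at 635 CPM.

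Cluster 11, a mature cluster of 2863 WT and 670 mutant cells, was set against the other mature clusters, also after the values were seen. Dgat2 was the only member called higher in WT, beside 4.2% of all genes, at 290.4, 284, 258 and 204 CPM in cluster 11 (WT log2 ratio 0.84, 0.78 to 0.90, over 160.4 CPM). Of 27 members, 4 were lower, beside 9.36%, namely Me1 (18.8 against 39.0 CPM), Fasn (18.7 against 30.8), Fdps (10.2 against 15.9) and Lss (3.51 against 5.74). The other mature clusters include clusters 5 and 6, where Fdps and Lss were called higher in both genotypes and Fasn in WT. Cluster 11 was not compared without them, so the calls of Fasn, Fdps and Lss are not separate from those above. The median log2 ratio of the members was -0.32, beside -0.020 over all genes tested. In the mutant Gpam (from 14 UMIs) and Dgat2 were higher (6.97% of all genes) and 7 of 28 members lower (12.5%), of which Me1, Fdps and Lss were shared with WT (75% of the WT and 42.9% of the mutant calls). With either WT library left out, 6 members were called, with Me1, Fasn, Dgat2 and Lss in both settings and Fdps lost without WT A. Among 37 other pathway genes in WT, Mylip and Abca1 were higher and 7 were lower (Mvk, Hsd17b7, Ebp, Acat2, Pparg, Acsl4, Abcg2). Proliferation markers summed to 29.0 CPM in WT cluster 11 and 310.3 CPM in the other mature cells. The 6 fibroblast markers summed to 36.5 and 10.0 CPM, with Dcn called higher, and the 6 basal markers to 24.8 and 14.7 CPM, with Acta2 called higher. The 5 progenitor markers summed to 35.7 and 59.8 CPM, with Aldh1a3, Elf5 and Itga2 called lower. The adipocyte marker Fabp4 was called lower (log2 ratio -1.23). The 6 mature luminal markers summed to 5811 and 4729 CPM, with none called. In the mutant Dcn and Acta2 were also called higher and Aldh1a3 lower. Krt14, another basal marker, was lower there, and the endothelial marker Egfl7 higher. The part of these markers in the values of cluster 11 was not tested.

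Between genotypes few members differed by 1.5-fold. Over all cells 33 members had at least 50 UMIs, and 2 were called higher in the mutant (Lpl and Cidea), beside 3.23% of all genes, and 0 lower, beside 1.17%. In LP 2 of 27 were higher (Elovl5 and Fdps, beside 2.23%) and 0 lower (0.606%), in LI 0 of 25 higher (2.83%) and 1 lower (Btn1a1, beside 1.03%), and in ML 1 of 29 higher (Idi1, beside 2.86%) and 0 lower (1.57%). The median log2 ratio of the members was 0.12 over all cells, 0.063 in LP, 0.044 in LI and 0.092 in ML, beside 0.024, 0.020, 0.0011 and 0.0034 over all genes tested. Of the 47 other genes of the pathways, 43 could be compared over all cells and 0 were called there, in LP, in LI or in ML. In ML the fibroblast markers summed to 14.4 CPM in WT and 4.88 CPM in the mutant, with Dcn called lower. The immune markers had a log2 ratio of 0.68 (0.42 to 0.94) in ML, with Cd74 called higher. In LI they had -0.85, with WT A at 29.5 CPM and WT B at 8.25 CPM. The basal markers had 0.36 in LI, with Acta2 called higher, and -0.26 in ML. The part of these 3 marker lists in the ratios of their classes was not tested. The adipocyte markers, at 10.3, 4.51 and 3.20 CPM in LP, LI and ML of the mutant, had a log2 ratio of 0.93 (0.40 to 1.47) in LP, with Fabp4 called higher, -1.37 in LI and 0.60 in ML. They had 7.18, 3.79, 7.85 and 12.3 CPM by library in LP and 18.9, 4.13, 7.03 and 1.85 CPM in LI, where WT A alone lay above both mutant libraries and without it the WT level was within the mutant range. Their part in the genotype ratios was not tested. Since these are sums of RNA over pooled cells of each class, fewer cells with a transcript and less transcript per cell cannot be told apart from the levels alone.

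**Figure D4:**
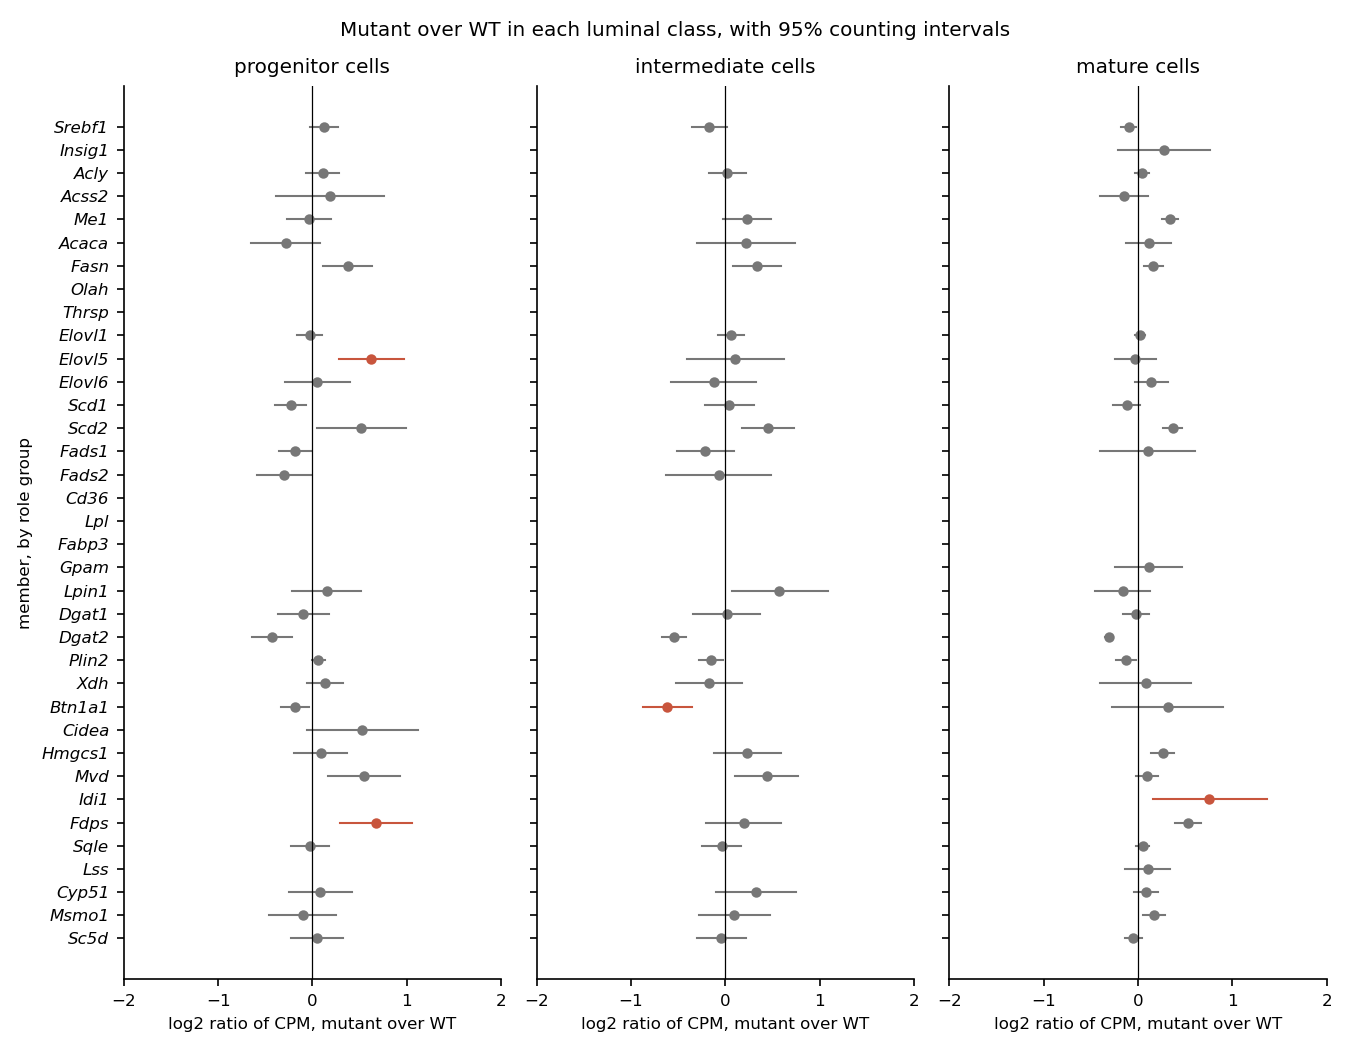
Log2 ratio of CPM, mutant over WT, for each member with at least 50 UMIs in progenitor, intermediate and mature cells, with the 95% counting interval as a line, red where called and grey otherwise. Dgat2 lies below 0 in all 3 panels, at -0.43, -0.55 and -0.31. Fdps and Scd2 lie above 0 in all 3, as do Acly, Fasn, Hmgcs1, Mvd and Cyp51.

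Dgat2 stayed under 1.5-fold between genotypes, with a log2 ratio of -0.37 (-0.41 to -0.33) over all cells, -0.43 (-0.64 to -0.22) in LP, -0.55 (-0.67 to -0.42) in LI and -0.31 (-0.35 to -0.27) in ML. Over all cells its level was 166, 161, 133 and 121 CPM, and both mutant libraries lay below both WT libraries there and in each class. By cluster it was lower in the mutant in 10 of clusters 1 to 11, in 7 of them with the libraries apart. These clusters come from the same libraries and are not repeats, and the share of all genes with such counts was not computed. The WT and mutant levels of Dgat2 were 182 and 141 CPM in cluster 4, 287 and 228 in cluster 11, and 146 and 145 in cluster 7. With the cluster sizes of WT applied to both genotypes the ratio was -0.25 over all cells and -0.21 in ML, and without cluster 11 it was -0.25 and -0.18. Without mutant A it became a call in LP (-0.65) and in LI (-0.61), and without mutant B the LP ratio was -0.20. The triglyceride group summed had a log2 ratio of -0.31 over all cells, mostly Dgat2, while the median of its 4 genes was 0.079. The 6 mature luminal markers summed had a log2 ratio of -0.21 over all cells, -0.22 in LP, -0.14 in LI and -0.17 in ML. Both mutant libraries lay below both WT libraries in each of these sums, and none of the 6 was called. Their part in the Dgat2 ratios was not tested.

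Fdps and Scd2 stood higher in the mutant in all 11 clusters of luminal cells, Fdps with the libraries apart in 10 and Scd2 in 8. The clusters come from the same libraries and are not repeats of the difference. The share of all genes with such counts was not computed. Fdps had 14.7, 14.1, 21.3 and 19.0 CPM over all cells (log2 ratio 0.48, 0.37 to 0.60). In LP it was called, at 10.4, 11.4, 19.5 and 15.6 CPM from 93 and 151 UMIs (0.67, 0.29 to 1.06), and the call was lost without mutant A (0.52) and with the shallowest 10% of cells removed (0.58). In ML, at 15.5, 14.4, 22.7 and 20.5 CPM, the ratio was 0.53 (0.40 to 0.66), and it was called there without mutant B. Scd2 had 25.9, 25.4, 31.5 and 33.8 CPM over all cells (0.35, 0.26 to 0.44), with ratios of 0.51 in LP, 0.46 in LI and 0.37 in ML. In LP the ratio moved with single libraries, to 0.24 without WT A, 0.27 without mutant B, 0.69 without mutant A and 0.90 without WT B, and Scd2 was called in the last pair of these settings.

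Elovl5 was called higher in mutant LP, at 11.6, 15.4, 22.0 and 20.1 CPM (0.62, 0.28 to 0.97), and lost the call without WT A (0.45) or mutant A (0.56), and with the shallowest 10% (0.58) or the deepest 5% of cells by UMIs removed (0.56). Its log2 ratio was 0.11 in LI and -0.031 in ML. Idi1, the isomerase of isopentenyl diphosphate, was called higher in ML at 0.663, 0.810, 1.23 and 1.26 CPM, from 42 and 57 UMIs (0.75, 0.15 to 1.37). Without mutant A (0.77) or mutant B (0.73) the ratio was about as large, but fewer than 50 UMIs were left and it was not called.

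Btn1a1 was the only member called lower in a class. In LI its log2 ratio was -0.61 (-0.87 to -0.36), from 309 and 212 UMIs, and it lost the call without WT B (-0.52). The member called there instead was Lpin1, as higher in the mutant. With all libraries Lpin1 had 7.43 CPM in LI of WT and 11.1 CPM in the mutant. The Btn1a1 call was also lost under the mean of the deposited signal (-0.46) and without the 5% of cells with the most UMIs (-0.43). In LP the ratio was -0.19 and in ML 0.31 (-0.27 to 0.90), where it was called higher without WT A (0.80) or mutant B (0.61) and was -0.078 without WT B and -0.022 without mutant A. In LI the summed progenitor markers had a log2 ratio of -0.22, Lalba -1.03, the 7 milk protein genes -0.46 and the 5 proliferation markers 0.56. Their part in the Btn1a1 value was not tested.

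Lpl was called higher over all cells at 0.513, 0.263, 0.733 and 1.23 CPM, from 28 and 62 UMIs (1.37, 0.71 to 2.07). Without mutant A (1.69) or mutant B (0.94) fewer than 50 UMIs were left and it was not called. Of these UMIs 1 in WT and 17 in the mutant came from clusters 12 and 13, and 20 and 34 from LP. Cidea was called at 1.34, 1.37, 2.07 and 2.04 CPM, from 99 and 128 UMIs (0.60, 0.21 to 0.99). It lost the call without WT A (0.58), without cluster 11 (0.45) and with cluster sizes held at those of WT (0.50). Cd36 had 0.855, 1.42, 1.63 and 1.51 CPM over all cells (0.45, 0.015 to 0.89) with a ratio of 0.14 without WT A and 0.88 without WT B, where it was called. By class it had 0.587, 0.946 and 0.335 CPM in LP, LI and ML of WT, and 1.27, 0.386 and 0.328 CPM in the mutant. Cluster 12 held 50 of the 127 WT and 72 of the 167 mutant UMIs of the uptake and carriage group. The ratio over all cells is thus not one of luminal cells alone.

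The other members that were highest in their groups stayed within 1.5-fold over all cells. Srebf1 had 54.9, 55.0, 52.3 and 55.0 CPM and Insig1 1.25, 1.60, 1.83 and 1.88. Acly had 59.8, 61.1, 60.7 and 64.0 CPM and Elovl1 113, 118, 110.2 and 122, and in both the genotypes overlapped. Me1 had 35.2, 35.2, 41.2 and 43.7 CPM (0.27, 0.19 to 0.35), with the libraries apart. Dgat1 had 19.3, 18.2, 18.4 and 18.8 CPM, Btn1a1 15.3, 15.6, 15.1 and 15.2, Sqle 58.3, 60.7, 57.8 and 62.3 and Sc5d, the sterol desaturase, 36.7, 37.4, 34.8 and 36.4. Plin2 had 83.3, 89.6, 91.3 and 102 CPM (0.16), but its ratio was 0.063 in LP, -0.15 in LI, -0.13 in ML and -0.0039 over all cells with cluster sizes held at those of WT. The summed cholesterol group had a log2 ratio of 0.099 over all cells, 0.12 in LP, 0.097 in LI and 0.12 in ML, and the building block and synthase group 0.14, 0.10, 0.17 and 0.15.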

How the data were processed

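Luminal mammary cells of 2 genotypes were profiled with 10x 3′ single-cell RNA-seq. The labels name bcl2fastq 2.20, CASAVA 1.8 and GSNAP and the build GRCm38. Per the labels and the study's methods, the authors clustered the cells in Partek Flow and deposited 1 table of signal values, in which each UMI count is multiplied by 1 factor per cell. Division by each cell's smallest value gave whole UMIs for 100% of the nonzero values, within 0.02. Levels (CPM) are a gene's total UMIs in the cells compared, relative to all UMIs there, computed with Python 3.11.15, numpy 2.4.6, pandas 2.3.3, scipy 1.17.1 and matplotlib 3.10.9. Intervals are exact Poisson, conditional binomial or Clopper-Pearson. For shares, cells were thinned to 1000 UMIs, and 45 WT and 252 mutant cells below that depth were dropped.

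No test was run, since the 3 mice of each genotype were pooled and how they were divided between the 2 libraries is not given in the sources used here. Alternatives were each library left out, other scaling, averaging, UMI minimums, cell filters and cluster sizes, and the calling steps were tested on simulated data. Named with values in every library were the members called between genotypes and the 2 with the highest WT level in each role group, and by class the 10 that passed with the widest range. The members and lists were chosen with earlier results of these data known. Gene positions are from GENCODE vM21. Promoters of Scd1, Scd2, Fads1, Lpl, Dgat1, Dgat2, Xdh, Btn1a1, Cidea, Fdps and Sqle were not used here, and values of some other pathway genes are not reported here.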

Additional observations from a re-analysis of the deposited data

Results flagged for a closer look

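Of the members compared in both LP and ML, 2 went opposite ways between genotypes in every pair of libraries. The share of all genes that did so was not computed, so this count is not read as a trait of the members. Srebf1, the SREBP gene of fatty acid synthesis, had a log2 ratio, mutant over WT, of 0.12 in LP and -0.099 in ML, and Lpin1, the phosphatidate phosphatase, of 0.15 and -0.16. In LI the ratio of Srebf1 was -0.17. Lpin1 differed most in LI, where it was not called, at 7.43 CPM in WT and 11.1 CPM in the mutant. The difference between the classes was not tested in either gene.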

How the results depend on the processing

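The 6 log2 ratios called between genotypes (Lpl and Cidea over all cells, Elovl5 and Fdps in LP, Btn1a1 in LI, Idi1 in ML) kept their sign under the alternatives run, while several values under the threshold did not, among them the sums of the lipid droplet group and of the regulators and ratios near 0 such as those of Sqle and Dgat1 over all cells. Members called between genotypes over all cells were 1 instead of 2 with median-of-ratios scaling, with at least 100 UMIs and without cluster 11. In LP the 2 calls became 7 with no minimum of UMIs, 0 without the 10% of cells with the fewest UMIs and 1 without the 5% with the most. The 1 call in LI became 4 with no minimum. Under the mean of the deposited signal or without the 5% of cells with the most UMIs, Btn1a1 lost its call there. In both of these settings Scd2, which was higher in the mutant, was called in LI. The 1 call in ML became 0 with at least 100 UMIs. Leaving out each library in turn gave 1 to 4 calls over all cells, 1 to 5 in LP (Mvd without WT B or mutant B, and Cidea without WT B, joined), 1 to 2 in LI (Acaca without WT A, Lpin1 without WT B or mutant B), 0 to 2 in ML and 5 to 7 between clusters 2 and 1. With no minimum, 14 members were called in clusters 5 and 6 and 12 in cluster 11, the latter 8 with at least 20 UMIs and 9 in the mutant, and 2 members in the mutant had a 2-fold class range with ML highest. Among summed log2 ratios over all cells, holding cluster sizes at WT gave 0.099 for building blocks, 0.032 for elongation and desaturation, -0.21 for triglyceride and -0.025 for the lipid droplet group, which was 0.15 otherwise, and leaving out cluster 11 gave 0.099 for building blocks, -0.21 for triglyceride and 0.049 for lipid droplets. The mean of the deposited signal gave 0.075 for regulators, -0.35 for triglyceride and 0.33 for lipid droplets, which had 0.21 without the shallowest and 0.21 without the deepest cells. In ML, holding sizes gave 0.092 for building blocks, -0.18 for triglyceride and 0.059 for cholesterol, and leaving out cluster 11 0.091 and -0.16 for the first and second of these. With 1 library left out, the sums ranged over all cells from 0.0042 to 0.13 for elongation, 0.084 to 0.21 for lipid droplets, -0.37 to -0.25 for triglyceride and 0.058 to 0.14 for cholesterol, in LP from 0.059 to 0.17 for cholesterol and 0.048 to 0.17 for building blocks, in LI from 0.015 to 0.18 and 0.11 to 0.22 for the same groups, and in ML from 0.0082 to 0.14, -0.33 to -0.22 and 0.083 to 0.16 for elongation, triglyceride and cholesterol. The causes of these shifts were not tested. The share of all genes called was computed only under the main rule with all libraries. Counts of members called under other settings are thus not read as traits of the members. No paired analysis was possible because the library codes of the table carry no replicate number of the labels. Low counts limited the comparison of Idi1, Cd36 and Lpl. The alternatives for clusters and class ranges were chosen after seeing the data.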

Other observations

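Within cluster 1, the progenitors low in proliferation markers, cells thinned to 1000 UMIs were split by whether they held a Plin2 UMI, a split chosen after values were seen and given with no test. There were 468, 514, 410 and 490 cells with one in WT A, WT B, mutant A and mutant B, and 847, 843, 787 and 830 without. Before thinning, cells with one had a median of 1674, 1939, 1745.5 and 1930 UMIs, and those without 1765, 1983, 1960 and 2139.5. Btn1a1 had a log2 ratio, with over without, of 0.95, 0.74, 0.56 and 0.72 in the same order, and all 4 counting intervals lay above 0. Other members were mixed. Lpin1 had 0.72, 0.87, 0.58 and 0.43, with every interval spanning 0. Xdh had 0.41, 0.069, 0.49 and 0.30, with an interval above 0 in mutant A only. Fasn had -0.60, -0.41, -0.26 and 0.17 and Acly -0.31, -0.20, 0.21 and 0.36, with every interval spanning 0. Among genes outside the list, some were also higher in all 4 libraries, with 0.35, 0.25, 0.16 and 0.22 for Csn3 and 0.20, 0.23, 0.29 and 0.44 for Cd14. Elf5 had 0.35, 0.24, 0.19 and 0.18. Others were not, with -0.086, -0.16, -0.013 and -0.11 for Aldh1a3, -0.023, 0.066, 0.15 and 0.30 for Kit, 0.61, 0.67, -0.18 and 0.65 for Lalba and -0.92, -0.64, -1.30 and -1.52 for Mki67, the last with intervals that spanned 0 in both WT libraries. Dgat2 had -0.67, -0.053, -1.22 and -0.36, with intervals that spanned 0 in WT B and mutant B.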
